A study of Mus musculus with 26 samples.

Results

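A set of 7 genes that handle glycerol and its phosphate in brown adipose tissue (BAT) was followed through the counts of 26 mice. They are the glycerol kinase gene Gk, the glycerol channel genes Aqp7 and Aqp3, the glycerol-3-phosphate dehydrogenase genes Gpd1, Gpd1l and Gpd2, and Pck1, which encodes cytosolic phosphoenolpyruvate carboxykinase (PEPCK). The members were chosen by name and function, with earlier results of these data known. All 7 were found among the 50686 genes of the count table, of which 50462 had a mouse symbol. Of these, 17286 genes had enough counts to be tested, including 6 of the 7 members, and Aqp3 was the exception. All mice were C57BL/6J males aged 12 to 16 weeks. In the knockout line, adiponectin-driven Cre is combined with floxed Mllt4 (Afdn), the gene for the junction protein Afadin, and control littermates served as the WT group. Every mouse first spent 14 to 18 days at thermoneutrality, given as 30 °C in the sample labels and as 29 °C in the methods of the study. At that temperature BAT was collected from 7 WT mice and 7 mice labelled Afadin KO, and after a further 6 h at 5 °C it was collected from 5 WT mice and 7 mice labelled Afadin KO. Cre under the adiponectin promoter acts in adipocytes, whereas RNA of the whole supraclavicular depot was sequenced, so Afdn transcripts of other cell types are counted as well.

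Brown adipocytes store triglyceride, burn its fatty acids for heat and need glycerol-3-phosphate to rebuild it. That backbone comes from glycerol through glycerol kinase, or from pyruvate by glyceroneogenesis, in which PEPCK makes phosphoenolpyruvate and GPD1, the cytosolic NADH-dependent dehydrogenase, reduces dihydroxyacetone phosphate. GPD2, in the inner mitochondrial membrane, oxidises glycerol-3-phosphate again and together with GPD1 forms the glycerol phosphate shuttle, which brown fat is known to carry in abundance. AQP7 is the aquaglyceroporin through which adipocytes release glycerol, AQP3 is a related channel best known from epithelia, and GPD1L is a GPD1-like protein studied mostly in the heart.

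In the mm10 build, Gk (ENSMUSG00000025059.16) lies on the minus strand at chrX:85701937-85776819, and Aqp7 (ENSMUSG00000028427.13) and Aqp3 (ENSMUSG00000028435.8) both lie on the minus strand of chromosome 4, at chr4:41033074-41048139 and chr4:41092722-41098183. Gpd2 (ENSMUSG00000026827.12) and Pck1 (ENSMUSG00000027513.11) are both on the plus strand of chromosome 2, at chr2:57237635-57370719 and chr2:173153048-173159273. Gpd1 (ENSMUSG00000023019.12) is on the plus strand at chr15:99717515-99725005, and Gpd1l (ENSMUSG00000050627.13) is on the minus strand at chr9:114899341-114933987. In 3 cases, members overlap annotated genes of the opposite strand. Gk shares 84 exonic bases with the antisense gene Gm14764, Gpd1 shares 384 with Gm16537 and Gpd2 shares 487 with A930012O16Rik. The library kit keeps strand, but whether the counting used it is not given in the sources used here, so these pairs may share reads.

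The promoters of Gk, Pck1 and Gpd1l are shown because these genes carried the largest rise, the highest-expressed PEPCK transcript and the largest fall among the members. The sequences are from RefSeq on GRCm38.p6 (the same coordinates as mm10), read 5′ to 3′ on the strand of the gene, and end just before the annotated gene. Capitals mark TGACG, the half-site of the cAMP response element (CRE), on either strand. Upstream of Gk lie the 250 bases of chrX:85776820-85777069, upstream of Pck1 the 225 bases of chr2:173152823-173153047, and upstream of Gpd1l the 250 bases of chr9:114933988-114934237.
Gk: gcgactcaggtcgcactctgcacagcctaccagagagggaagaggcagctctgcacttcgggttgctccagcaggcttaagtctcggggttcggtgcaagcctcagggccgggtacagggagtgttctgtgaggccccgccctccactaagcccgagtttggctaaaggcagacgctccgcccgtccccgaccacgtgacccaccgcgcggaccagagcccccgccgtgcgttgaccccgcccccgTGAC
Pck1: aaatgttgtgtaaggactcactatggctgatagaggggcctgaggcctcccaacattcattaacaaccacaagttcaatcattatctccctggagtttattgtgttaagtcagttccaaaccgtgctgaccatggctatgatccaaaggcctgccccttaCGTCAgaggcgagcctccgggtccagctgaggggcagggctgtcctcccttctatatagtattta
Gpd1l: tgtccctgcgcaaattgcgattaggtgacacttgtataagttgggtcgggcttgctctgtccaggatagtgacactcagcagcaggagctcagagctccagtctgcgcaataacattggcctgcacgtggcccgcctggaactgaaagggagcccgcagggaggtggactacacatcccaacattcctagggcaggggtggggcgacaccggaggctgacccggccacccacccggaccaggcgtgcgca
The RefSeq table held 8 promoter windows of 300 bases (250 before to 50 after the start) for 6 of the 7 members, and none for Gpd1. In Gk the half-site began 4 bases before the start and its last letter is the first transcribed base, which is not printed. In Pck1 the half-site began 90 bases before the RefSeq start, on the other strand. The half-site was present in 20.8% of all 32851 mouse promoter windows, and in none of the 6 windows of Aqp7, Aqp3, Gpd1l and Gpd2. The full CRE, TGACGTCA, which is its own reverse complement and contains the half-site, was in no member's window and in 1.79% of all windows. The TATA box letters TATAAA were found in the window of Aqp3 alone and in 13.6% of all windows. These are exact matches of letters, not tests of binding, and near matches to the full CRE or the TATA box were not counted.

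The libraries held 12705969 to 25732258 counts each, of which 14.3% to 40.5% fell on genes of the mitochondrial genome, and their TMM scaling factors ran from 0.759 to 1.29. Ucp1, which encodes the uncoupling protein that defines brown fat, read 551 to 1292 counts-per-million (CPM) at 30 °C and 13014 to 20990 CPM at 5 °C. Afdn itself was not lower in the mice labelled Afadin KO at 30 °C, with a lowest, median and highest value of 151, 200.03 and 214 CPM in WT mice and 153.5, 204 and 231 CPM in the labelled mice (log2 fold change -0.01 ± 0.08 SE). At 5 °C it read 67.9, 75.5, 71.2, 73.7 and 79.2 CPM in the WT mice and 53.3, 57.9 and 65.3 CPM in the labelled mice, below every WT mouse (log2 fold change -0.33 ± 0.09 SE, adjusted p = 0.116, edgeR quasi-likelihood test). The gene-level counts do not separate the floxed exons from the others, and so the groups are called by their label throughout. For protein, which these counts do not measure, the study reports a rise of Afadin in cold-exposed control BAT that was reduced in knockout mice. From quantitative PCR of Mllt4 mRNA in both genotypes, the study reports that no increase in this mRNA accounts for the rise. It also shows blots of Afadin protein in both genotypes at thermoneutrality. The 7 skeletal muscle markers summed to between 0.815 and 7173 CPM, with wide ranges in all 4 groups, and 0 of 7 passed the test in any comparison, with 0 at an unadjusted p under 0.05 and 0 with DESeq2 (edgeR quasi-likelihood test with Benjamini-Hochberg adjustment). Their part in the results was not tested beyond repeating the fits in the 16 mice under 1000 CPM. Markers of epithelium and of liver and kidney, the other homes of Aqp3, Gk and Pck1, summed to at most 0.551 CPM in any mouse.

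Cold changed most of these genes, and the sizes ranged from a 66.9-fold rise to a 5.41-fold fall. In WT mice 4 of the 6 tested members rose (Gk, Aqp7, Gpd2, Gpd1) and 1 fell (Gpd1l), against 31.6% of all tested genes that rose and 33.4% that fell. In the mice labelled Afadin KO 5 rose, Pck1 being the fifth, and 1 fell, against 33.7% and 34.9% of all genes. Cold thus moved a large part of the transcriptome, and the members' counts are to be read beside that. The median log2 change of the members was 0.40 in WT mice and 0.57 in the labelled mice, beside -0.01 and -0.03 over all genes. The plot of values by mouse shows each member in the 4 groups. In bulk tissue a change in the number of cells of a type and a change in the RNA of each cell cannot be told apart. Of 8 brown adipocyte markers, Ucp1 among them, 4 rose and 2 fell in the cold in WT mice. In the labelled mice 4 of the 8 rose and 3 fell. Markers of other cell types moved with temperature too. The summed median level of 4 white adipocyte markers was 279.7 CPM at 30 °C and 44.3 CPM at 5 °C in WT mice and 304 and 67.0 CPM in the labelled mice, with 1 of the 3 tested falling under both labels and 1 rising in the labelled mice. For 6 endothelial markers it was 537 and 787 CPM in WT mice (3 rose, 3 fell) and 593 and 761 CPM in the labelled mice (3 rose, 2 fell). For 6 macrophage markers it was 225 CPM at both temperatures in WT mice (2 rose, 3 fell) and 199 and 286 CPM in the labelled mice (3 rose, 2 fell). For 6 lymphocyte markers it was 4.48 and 1.39 CPM (3 fell) and 4.97 and 1.37 CPM (1 fell). The 4 red blood cell markers stood at 414 and 446 CPM in WT mice, where none was called, and at 372 and 821 CPM in the labelled mice, where all 4 rose. The part of these cells in the members' changes was not tested.

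**Figure D1:**
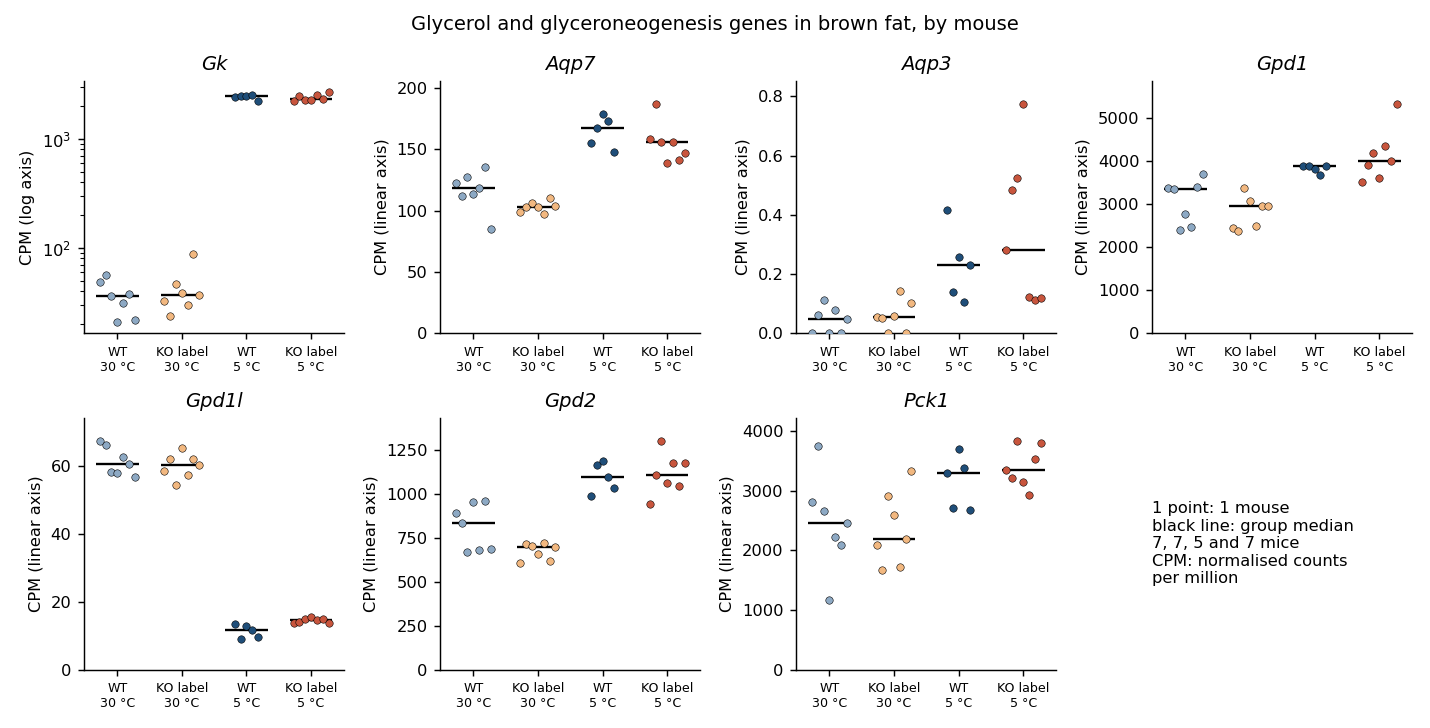
Normalised counts-per-million (CPM) of the 7 members in each of 26 mice, with a log axis for Gk and linear axes from 0 for the others; each point is 1 mouse and the black line is the group median. Gk was below 100 CPM in every mouse at 30 °C and at 2214 CPM or more in every mouse at 5 °C, Gpd1l fell from over 54 CPM to under 16 CPM, Aqp7, Gpd1, Gpd2 and Pck1 moved much less, and Aqp3 stayed under 1 CPM in every mouse.

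Glycerol kinase showed the largest change. At 30 °C the lowest, median and highest level of Gk was 21.03, 36.0 and 56.7 CPM in WT mice and 23.6, 36.9 and 88.0 CPM in the mice labelled Afadin KO. At 5 °C the WT mice read 2424, 2454, 2470.5, 2506 and 2245 CPM, and the labelled mice 2214, 2302 and 2669 CPM. No mouse at 5 °C came near any mouse at 30 °C. The log2 fold change was 6.06 ± 0.27 SE in WT mice (66.9-fold, 95% interval 45.3 to 98.8, adjusted p = 4.08e-16) and 5.82 ± 0.27 SE in the labelled mice (56.6-fold, 38.8 to 82.5, adjusted p = 3.28e-16, edgeR quasi-likelihood test). From the highest change downwards Gk ranked 17 and 22 among the 17286 genes tested. By mean CPM it moved from rank 3589 to rank 28 among all genes in WT mice, and from 2980 to 29 in the labelled mice. The spread among mice narrowed as well, from a coefficient of variation of 36.5% and 50.8% at 30 °C to 4.22% and 6.95% at 5 °C. The 50.8% of the labelled mice became 22.8% without mouse 13, the one at 88.0 CPM. The antisense gene Gm14764 read 0.121 to 1.81 CPM at 30 °C and 6.52 to 12.3 CPM at 5 °C over both labels, and the pseudogene Gm14767, which lies in the same locus without sharing exonic bases, went from under 2 CPM to between 6.77 and 10.7 CPM. Both were under 1% of the level of Gk in the cold. Reads in the 84 exonic bases that Gm14764 shares with Gk cannot be told apart if strand was not used.

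Of the channels, Aqp7 was expressed and Aqp3 was near absent. Aqp7 read 84.7, 118 and 136 CPM (lowest, median, highest) in WT mice at 30 °C, and 155, 167, 179, 173 and 148 CPM in WT mice at 5 °C. In the mice labelled Afadin KO it read 97.4, 103 and 110.1 CPM at 30 °C and 139, 156 and 187 CPM at 5 °C. The cold values lay above all values at 30 °C of the same label. Aqp7 rose 1.42-fold in WT mice (log2 0.50 ± 0.08 SE, adjusted p = 8.33e-06) and 1.505-fold in the labelled mice (log2 0.59 ± 0.08 SE, adjusted p = 1.78e-07, edgeR quasi-likelihood test). With nuclear library size, which leaves mitochondrial genes out of the total, the log2 changes were 0.26 and 0.24.

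Aqp3 was represented by 0 to 3 raw counts per mouse at 30 °C, 5 in all over the 7 WT mice and 8 over the 7 labelled mice. At 5 °C the WT mice had 7, 2, 6, 2 and 4 counts and the labelled mice 2, 4 and 13 (lowest, median, highest). Levels this low, under 1 CPM in every mouse, did not pass the filter. In a fit that kept every gene with at least 1 count, Aqp3 was called higher in the cold under both labels (adjusted p = 0.00871 and 0.000846, edgeR quasi-likelihood test), on counts that overlapped between the temperatures. No fold is given for it. The epithelial markers, at or near 0 as stated above, were tested in no comparison.

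Among the dehydrogenases, Gpd1 and Gpd2, the pair that forms the shuttle, rose modestly and Gpd1l fell. Gpd1 read 2396, 3345 and 3702 CPM in WT mice at 30 °C and 3888, 3882, 3805, 3674 and 3885 CPM in WT mice at 5 °C. In the mice labelled Afadin KO its values were 2367, 2952 and 3369 CPM at 30 °C and 3523, 4001 and 5329 CPM at 5 °C. The ranges met in WT mice, through 1 mouse at 30 °C with 3702 CPM, and were separate in the labelled mice. Gpd1 rose 1.25-fold in WT mice (log2 0.32 ± 0.11 SE, adjusted p = 0.0137) and 1.47-fold in the labelled mice (log2 0.56 ± 0.10 SE, adjusted p = 2.99e-05, edgeR quasi-likelihood test). The call in WT mice was lost in the mice with little muscle RNA, where 8 of 12 WT mice were left and the change was as large (log2 0.32, adjusted p = 0.0551), and with 3 other scalings, among them library size alone (log2 0.19, adjusted p = 0.271). The call in the labelled mice was lost with library size alone (log2 0.26, adjusted p = 0.0834) and held, at log2 0.21, with nuclear library size.

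Gpd2 read 668, 832 and 956 CPM in WT mice at 30 °C, and 986, 1161, 1188, 1093 and 1030.2 CPM in WT mice at 5 °C. In the mice labelled Afadin KO it read 605, 698 and 720.3 CPM at 30 °C and 939, 1108 and 1301 CPM at 5 °C. The temperatures did not overlap under either label. The rise was 1.35-fold in WT mice (log2 0.43 ± 0.09 SE, adjusted p = 0.000217) and 1.65-fold in the labelled mice (log2 0.73 ± 0.09 SE, adjusted p = 3.16e-08, edgeR quasi-likelihood test). With nuclear library size the log2 changes were 0.20 and 0.38. The opposite-strand transcript A930012O16Rik moved the other way, from 1.93 to 3.20 CPM at 30 °C to 0.366 to 1.03 CPM at 5 °C, and was far below Gpd2 throughout.

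Gpd1l was the member that fell. It read 56.6, 60.7 and 67.5 CPM in WT mice at 30 °C, and 13.5, 8.99, 13.0, 11.6 and 9.51 CPM in WT mice at 5 °C. In the mice labelled Afadin KO it read 54.3, 60.4 and 65.3 CPM at 30 °C and 13.8, 14.8 and 15.6 CPM at 5 °C. Every mouse in the cold was below every mouse at 30 °C. The fall was 5.41-fold in WT mice (log2 -2.44 ± 0.08 SE, adjusted p = 3.1e-18) and 4.11-fold in the labelled mice (log2 -2.04 ± 0.07 SE, adjusted p = 3.49e-18, edgeR quasi-likelihood test). Counted from the lowest change, Gpd1l ranked 326 and 529 of 17286 genes. These values rest on 129 to 302 raw counts per WT mouse in the cold and on 809 to 1234 at 30 °C.

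Pck1, the PEPCK gene, was high at both temperatures and variable at 30 °C. It read 1175, 2463 and 3746 CPM in WT mice at 30 °C, and 3297, 2709.9, 3697, 3386 and 2674 CPM in WT mice at 5 °C. In the mice labelled Afadin KO it read 1669, 2195 and 3331 CPM at 30 °C and 2931, 3338 and 3836 CPM at 5 °C. The temperatures overlapped under both labels. The change was 1.29-fold in WT mice and did not pass the test (log2 0.36 ± 0.19 SE, 95% interval -0.02 to 0.75, adjusted p = 0.0918), while Pck1 rose 1.44-fold in the labelled mice (log2 0.53 ± 0.17 SE, adjusted p = 0.00846, edgeR quasi-likelihood test). The size in WT mice depended on single mice at 30 °C. Without number 2, at 3746 CPM, the log2 change was 0.49 and passed (adjusted p = 0.0172), and without number 4, at 1175 CPM, it was 0.24 (adjusted p = 0.187, edgeR quasi-likelihood test). The call in the labelled mice was lost with library size alone (log2 0.23, adjusted p = 0.255), a scaling that moves the median log2 change of all genes there from -0.03 to -0.34.

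**Figure D2:**
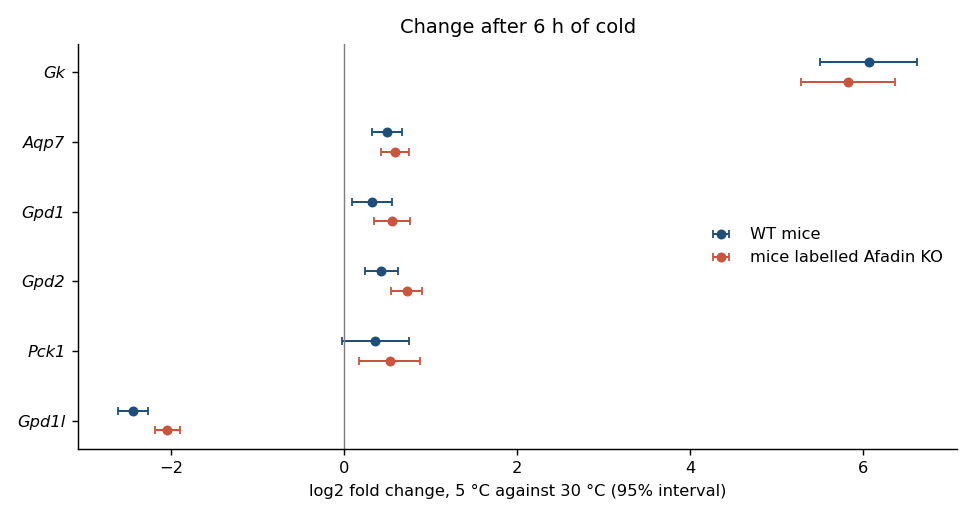
Log2 fold change of the 6 tested members after 6 h at 5 °C against 30 °C, in WT mice (blue) and in mice labelled Afadin KO (red), as point estimates with 95% intervals from the edgeR fit. Gk stood at 6.06 and 5.82 and Gpd1l at -2.44 and -2.04, and the other 4 genes lay between 0.32 and 0.73, the interval of Pck1 in WT mice reaching below 0.

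Per length, the order of the genes changed with Gk. Levels were taken as CPM divided by exon length in kilobases (RPKM), with the union of annotated exons as length. In WT mice at 30 °C the median RPKM fell from Gpd1 (1130) and Pck1 (718) through Gpd2 (127), Aqp7 (41.9) and Gpd1l (12.0) to Gk (4.65) and Aqp3 (0.0251). The labelled mice had the same order, from Gpd1 (997) and Pck1 (640.1) to Gk (4.76). Gpd1 and Pck1 overlapped in range at 30 °C under both labels, as did Gpd1l and Gk in the labelled mice, although Gpd1 exceeded Pck1, and Gpd1l exceeded Gk, within each of the 7 mice. At 5 °C Gk stood in the third place, with a median RPKM of 317 in WT mice and 297 in the labelled mice, between Pck1 (961 and 973) and Gpd2 (167 and 169), and no neighbours in the order overlapped. The per-length ratio of Pck1 to Gk had a median of 149 in WT mice and 146 in the labelled mice at 30 °C, and 3.05 and 3.217 at 5 °C. The ratio of Gpd1 to Gpd2, the shuttle pair, had medians of 8.05 and 9.37 at 30 °C and of 7.44 and 8.18 at 5 °C, with overlapping ranges. The order was identical with the longest annotated transcript as length, which gave Gk a cold median of 565 and 530.5 RPKM, since its exon union is 7743 bases and its longest transcript 4340.

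**Figure D3:**
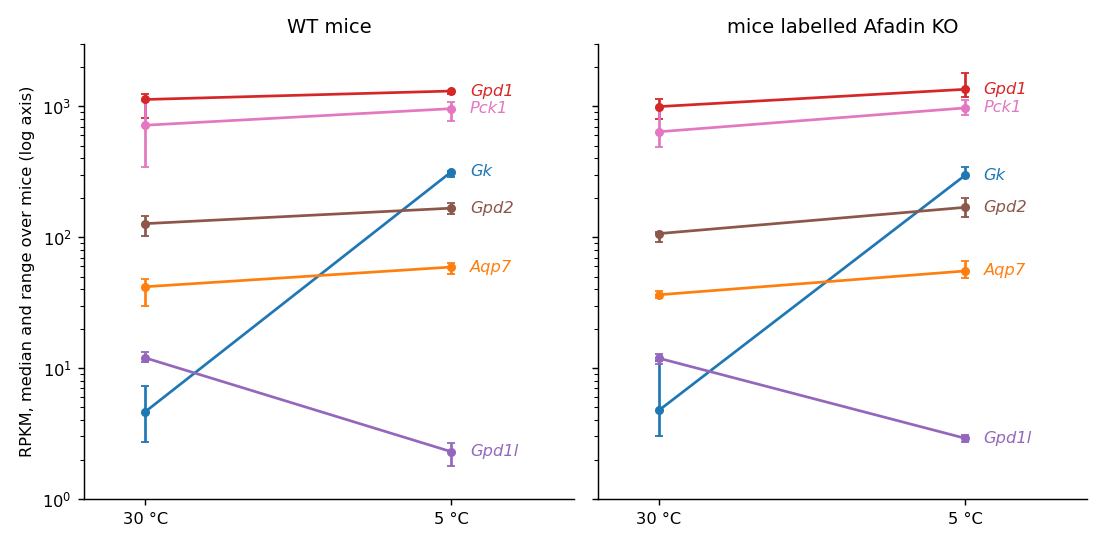
Level per exon length (RPKM, log axis) of 6 members at 30 °C and 5 °C in WT mice (left) and in mice labelled Afadin KO (right); points are medians and bars span the lowest to the highest mouse, and Aqp3, below 1 RPKM, is left out. The line of Gk crosses those of Gpd1l, Aqp7 and Gpd2, from a median of 4.65 to 317 RPKM in WT mice.

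The Afadin label was compared at each temperature. At 30 °C none of the 6 tested members passed the test between labels, against 0.081% of all genes, and 2 had an unadjusted p under 0.05. At 5 °C none passed, against 0.139% of all genes, and 1 had an unadjusted p under 0.05. None passed for the difference of the cold responses, against 1.16% of all genes, and 2 had an unadjusted p under 0.05 (edgeR quasi-likelihood test throughout). With DESeq2 the count was 0 at 30 °C and 1 for each of the others, Gpd1l both times.

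Gpd2 and Aqp7 were the members with an unadjusted p under 0.05 at 30 °C. Gpd2 was lower in the mice labelled Afadin KO by 0.26 ± 0.09 SE on the log2 scale, with all 7 labelled mice below the WT mean of 809 CPM but overlapping ranges (adjusted p = 0.404, edgeR quasi-likelihood test, exact two-sided permutation p = 0.0321). Aqp7 differed by -0.17 ± 0.08 SE on the log2 scale (adjusted p = 0.596, edgeR quasi-likelihood test, exact two-sided permutation p = 0.081), again with all 7 labelled mice below the WT mean. With library size alone these differences were -0.11 for Gpd2 and -0.0132 for Aqp7. The share of counts on mitochondrial genes had a median of 37.2% in the WT mice and 28.3% in the labelled mice at 30 °C, and its part in these differences was not tested. For Gk the difference at 30 °C was 0.22 ± 0.22 SE, with a 95% interval from -0.23 to 0.67, and for Pck1 it was -0.06 ± 0.17 SE, with an interval from -0.41 to 0.30. At 5 °C the intervals ran from -0.50 to 0.46 for Gk, from -0.28 to 0.50 for Pck1 and from -0.12 to 0.34 for Gpd1. They ran from -0.16 to 0.22 for Gpd2 and from -0.26 to 0.09 for Aqp7. A difference within these bounds is not excluded, and they are not limits of what the test could detect. The fit takes the spread of each gene over all 4 groups together. For Gk the coefficients of variation in WT and labelled mice were 36.5% and 50.8% at 30 °C, and 4.22% and 6.95% at 5 °C. In all, 12 exact permutation tests were run, for 6 members at each temperature, and their p-values are not adjusted. The smallest p they allow, reached when the groups do not overlap, is 0.000583 at 30 °C and 0.00253 at 5 °C.

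Gpd1l came closest to a difference between labels. All 7 labelled mice at 5 °C, at 13.8 to 15.6 CPM, were above all 5 WT mice, at 8.99 to 13.5 CPM, a separation seen in 1.11% of all tested genes at that temperature and in 0.249% at 30 °C, where no member showed it. The log2 difference was 0.36 ± 0.08 SE (1.29-fold, adjusted p = 0.0685, edgeR quasi-likelihood test, exact two-sided permutation p = 0.00253). That permutation p follows from the separation itself and is the smallest the test allows with these mice. At 30 °C the difference was -0.03 ± 0.07 SE, and the cold responses of the labels differed by 0.40 ± 0.11 SE, the fall being smaller in the labelled mice (adjusted p = 0.0578, edgeR quasi-likelihood test). Both missed the threshold here and passed with DESeq2 (adjusted p = 0.00858 and 0.0129). With library size alone the edgeR values were 0.31 (adjusted p = 0.394) at 5 °C and 0.19 (adjusted p = 0.548) for the difference of responses. The difference at 5 °C also passed when the WT mouse 7 at 30 °C (0.0448), the WT mouse 16 at 5 °C (0.0274) or the labelled mouse 22 at 5 °C (0.0415) was left out, and the adjusted p of the edgeR fits lay between 0.0274 and 0.256 over the 26 such fits. In the mice with little muscle RNA the difference was as large, 0.37 on the log2 scale, with 3 WT and 4 labelled mice left (adjusted p = 0.196). Afdn, lower at 5 °C by 0.33 on the log2 scale, was separated the other way in the same mice.

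**Figure D4:**
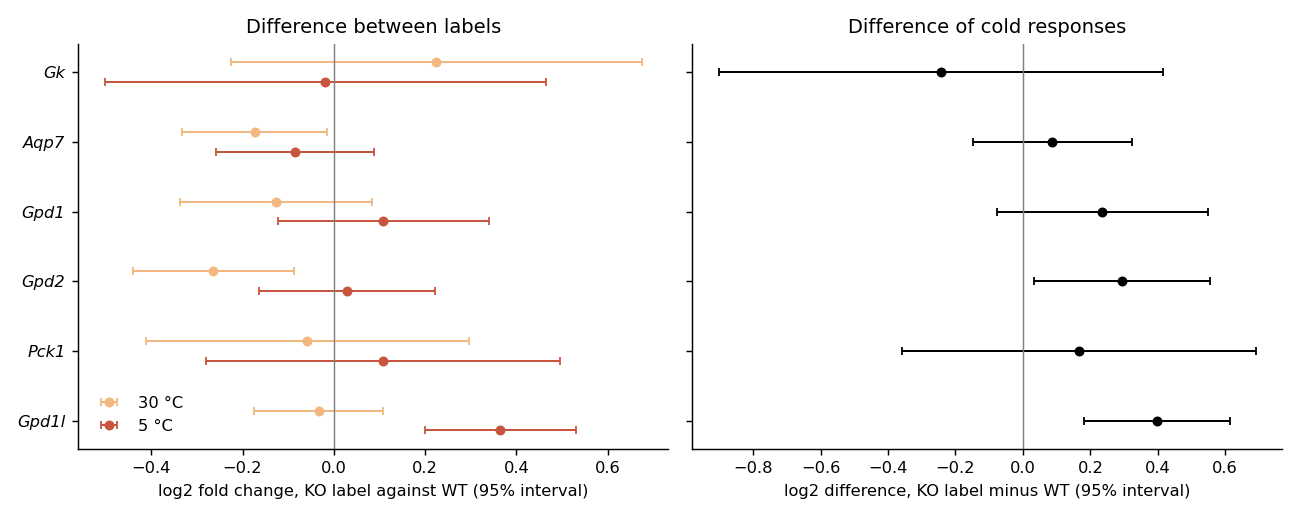
Left, log2 fold change between mice labelled Afadin KO and WT mice at 30 °C (orange) and 5 °C (red) for the 6 tested members. Right, the difference between the cold responses of the labels; points are estimates and bars 95% intervals. Gpd1l at 5 °C (0.36) and its difference of responses (0.40) have intervals clear of 0, as have Gpd2 (-0.26) and Aqp7 (-0.17) at 30 °C and the difference of Gpd2 (0.29), but none passed after adjustment over all genes.

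Genes around the pathway were examined as 6 lists of 47 genes, of which 44 were tested. In WT mice 19 rose and 10 fell in the cold, with a median log2 change of 0.13, beside 31.6% and 33.4% of all tested genes and a median of -0.01. In the mice labelled Afadin KO 22 rose and 10 fell, with a median of 0.49, beside 33.7% and 34.9% of all genes and a median of -0.03. The counts given for single lists in WT mice are to be read against the same shares of all genes. The split depends on the scaling, since with upper-quartile factors 15 rose and 16 fell in WT mice, and with library size alone 18 rose and 15 fell in the labelled mice. Other glycerol channels and kinases did not follow Gk. Of 6 listed genes, Aqp9, Gk2 and Gykl1 had at most 8 counts in any mouse. Of the 3 tested, Gk5, a relative of glycerol kinase, and Aqp11, an intracellular aquaporin, fell in WT mice (log2 -1.04 ± 0.13 SE and -0.98 ± 0.36 SE). The other was Pgp, a phosphatase kept in this list, which was called under neither label (log2 -0.23 in WT mice and 0.12 in labelled mice). In the labelled mice Gk5 fell (log2 -0.71) and Aqp11 was not called (log2 -0.69, adjusted p = 0.0581, edgeR quasi-likelihood test). The call of Aqp11 was lost without WT mouse 7 at 30 °C (log2 -0.74, adjusted p = 0.0566), without WT mouse 17 (-0.87, 0.0515) or 18 (-0.82, 0.06) at 5 °C, and in the mice with little muscle RNA (-0.53, 0.23, edgeR quasi-likelihood test).

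On the way from pyruvate to phosphoenolpyruvate 5 of 12 genes rose and 3 fell in WT mice, close to the 31.6% and 33.4% of all tested genes. Got1, the cytosolic aspartate aminotransferase that supplies oxaloacetate to PEPCK, rose most, from a median of 12.7 to 165 CPM (log2 3.50 ± 0.13 SE), and Mpc2, a subunit of the mitochondrial pyruvate carrier, rose by 0.81 ± 0.10 SE. Pck2, the mitochondrial PEPCK, fell by 0.58 on the log2 scale, while Pck1 stood 171 times above it per length at 30 °C and 321 times at 5 °C in the median WT mouse. Slc25a10, the dicarboxylate carrier, differed by -1.42 ± 0.42 SE and passed, but its change was -0.29 in the mice with little muscle RNA (adjusted p = 0.351, edgeR quasi-likelihood test). Without WT mouse 7 at 30 °C, which read 87.3 CPM beside a group median of 13.2 CPM, the change was -0.67 (adjusted p = 0.0206). In the mice labelled Afadin KO Slc25a10 was not called (log2 -0.58, adjusted p = 0.171, edgeR quasi-likelihood test), while Got1, Mpc2 and Pck2 were, in the same direction. From phosphoenolpyruvate back to dihydroxyacetone phosphate 5 of 9 genes rose and none fell in WT mice, led by Aldoa (0.97 ± 0.13 SE), an aldolase, and Pgk1 (0.91 ± 0.08 SE), phosphoglycerate kinase.

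The enzymes that release glycerol moved in both directions in WT mice. Abhd5, the activator of adipose triglyceride lipase, rose from a median of 60.6 to 248 CPM (log2 1.98 ± 0.10 SE) and Mgll, monoglyceride lipase, passed at 0.24 ± 0.09 SE, a call lost under 6 of 12 alternatives and without any 1 of 3 mice (KO-labelled mice 9 and 12 at 30 °C and WT mouse 18 at 5 °C, adjusted p from 0.0522 to 0.0803, edgeR quasi-likelihood test). Lipe, hormone-sensitive lipase, fell from 1168 to 540 CPM (log2 -1.08 ± 0.11 SE) and Pnpla2, adipose triglyceride lipase, fell by 0.34 (by 0.57 with nuclear library size). In the mice labelled Afadin KO Pnpla2 was not called (log2 -0.11, adjusted p = 0.336, edgeR quasi-likelihood test). Abhd5, Mgll and Lipe were called there in the same direction as in WT mice. Of the 4 glycerol-3-phosphate acyltransferases, which put the first acyl chain on the backbone, 3 rose in WT mice, among them Gpam by 1.81 ± 0.09 SE and Gpat4 by 1.495 ± 0.12 SE. Among 12 transcriptional regulators known to act on Pck1 or Gk, 4 rose and 3 fell. Ppargc1a (PGC-1α), a coactivator, rose from 31.9 to 552 CPM (log2 4.07 ± 0.21 SE) and Foxo1, a forkhead factor, by 1.79 ± 0.16 SE, while Cebpa (C/EBPα) fell by 2.33 and Ppara (PPARα) by 1.17 on the log2 scale.

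**Figure D5:**
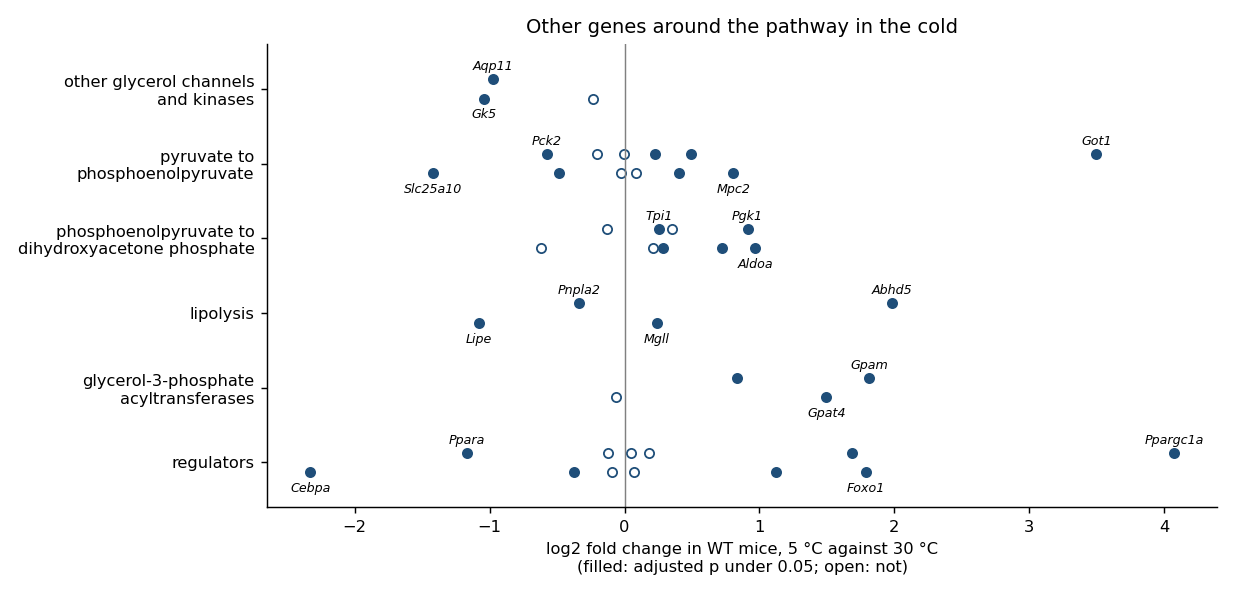
Log2 fold change in WT mice at 5 °C against 30 °C for the 44 tested genes of 6 lists around the pathway; 1 point is 1 gene, filled where the adjusted p passed 0.05 and open where it did not. Got1 (3.50) and Ppargc1a (4.07) lie far to the right, Cebpa (-2.33) to the left, and 19 filled points lie above 0 and 10 below.

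Between labels no gene of these lists passed with edgeR at 30 °C (7 at an unadjusted p under 0.05, 0 called by DESeq2) or at 5 °C (9 and 1). In the difference of cold responses 2 of 44 passed. Tpi1, triosephosphate isomerase, rose by 0.26 in WT mice and 0.62 in the mice labelled Afadin KO, a difference of 0.36 ± 0.09 SE (adjusted p = 0.0388), and Cebpa fell by 2.33 and 1.86, a difference of 0.47 ± 0.12 SE (adjusted p = 0.0428, edgeR quasi-likelihood test). The number of calls in this comparison was 0 in 4 of the 11 alternatives that could be run, library size alone and the mice with little muscle RNA among them, 6 with DESeq2, and between 0 and 5 when 1 mouse was left out. Of these 26 fits, 20 gave a count other than 2. It was 5 without labelled mouse 22 at 5 °C, and 0 or 1 in the rest of those fits. The rise of Tpi1 in WT mice was itself lost under 4 of 12 alternatives, with log2 changes from 0.02 to 0.18.

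The genes whose levels most resembled those of Gk over the 26 libraries, by Pearson correlation of log2 CPM, were Tmed5, Car13 and Hccs (0.996, 0.996 and 0.995). These libraries fall into 2 temperatures between which Gk lay far apart. After the group means were removed the closest were Etfdh (0.84), Dio2 (0.83) and Car13 (0.83), the second being the deiodinase that activates thyroid hormone in brown fat. For Pck1 the closest in these deviations were Arl4a (0.87), Vegfa (0.85) and Gm38034 (0.85), for Gpd2 Dlat (0.85), Gbe1 (0.84) and Pdhb (0.82), and for Gpd1 Emc6 (0.86), Psmc4 (0.84) and Kpna6 (0.84). For Aqp7 they were Rb1, Bag4 and Gtf2a1 (0.84, 0.83 and 0.79). Over the 15 pairs of members the coefficient of these deviations ran from -0.19 (Aqp7 and Gpd1) to 0.55 (Gk and Pck1). Gpd1 and Gpd2 stood at 0.35, Gk and Gpd2 at 0.0049 and Gpd2 and Pck1 at -0.16. The genes named above were picked for the highest values, so pairs of members are lower by that choice. Whether members deviated together more or less than other genes was not tested. The points share sequencing depth and scaling, and the 3 genes named for each of these 5 members are the highest of all genes with a mean of at least 1 CPM.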

How the data were processed

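Whole-tissue RNA of 26 mice was depleted of ribosomal RNA and sequenced as stranded, single-end reads of 100 bases. According to the submitters' processing notes and the study's methods, the authors used STAR 2.5.2b to map reads to mm10, took gene counts with featureCounts 1.5.2 (GENCODE release M13), and tested with edgeR 3.22.0. The deposited values are raw counts per gene and library, with no normalization.

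Here, counts were tested with edgeR 4.0.16 (quasi-likelihood F test in its legacy form, TMM factors, filterByExpr, 1 model of 4 groups over all 26 libraries, R 4.3.3), with Benjamini-Hochberg adjustment over 17286 genes and a threshold of 0.05. Standard errors are the log2 fold change over the root of F. CPM are scaled by TMM, and log2 CPM use a prior count of 2. Single genes were also compared between labels by exact permutation of mean log2 CPM (scipy 1.17.1). Alternatives were DESeq2 1.42.0, other scalings and filters, subsets of samples, and leaving out each mouse. Leaving out muscle-rich mice, leaving out 3 libraries of extreme scaling factors (WT 7 at 30 °C, KO-labelled 24 and 25 at 5 °C), and scaling by nuclear-encoded counts were chosen after seeing the data. The fit was tested on simulated data without a cold effect, where 200 genes were changed by 1 on the log2 scale in labelled mice at 5 °C. Between labels at 5 °C 143 of the 200 were recovered, with 11 others called, among 16876 genes. For the difference of responses 103 were recovered, with 7 others called. Changes as small as the label differences of the members were not simulated. The 73 pairs of libraries within groups all differed beyond counting noise, and each library was taken as 1 mouse. Gene positions are from the mm10 annotation and promoters from RefSeq. The members and lists were chosen with earlier results of these data known. Named were all members, up to 2 rising and 2 falling genes of each list with the largest change past the threshold in WT mice in the cold, list genes past the threshold between labels or in the difference of responses, and the 3 most similar genes of each member, which are not reported here for Gpd1l.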

Additional observations from a re-analysis of the deposited data

Results flagged for a closer look

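Within the 28 sets of values given by 7 members in 4 groups, 2 held a mouse that stood apart from the rest of its group by Dixon's gap test, and chance alone marks about 1 set in 20. The highest Gk value at 30 °C, 88.0 CPM in mouse 13 of those labelled Afadin KO, lay well above the other 6 mice of its group. Without that mouse the log2 difference of Gk between labels at 30 °C went from 0.22 to -0.04, neither passing the test. The highest Aqp7 value at 5 °C, 187 CPM in mouse 23 of those labelled Afadin KO, likewise lay above the other 6 mice of its group, and Aqp7 kept its cold call in every fit that left out 1 mouse.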

How the results depend on the processing

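Over 12 alternatives and 26 fits with 1 mouse left out, the cold changes of Gk, Gpd1l, Aqp7 and Gpd2 kept direction and call under both labels, although Aqp7 and Gpd2 shrank to their lowest values with nuclear library size (0.26 and 0.20 in WT mice, 0.24 and 0.38 in labelled mice). The number of members called in the cold lay between 4 and 6 in WT mice and between 4 and 7 in mice labelled Afadin KO. Gpd1 in WT mice was also lost with upper-quartile factors (log2 0.22, adjusted p = 0.079) and nuclear library size (0.09, 0.407), and Pck1 in labelled mice with nuclear library size (0.18, 0.311). Library size alone moved the median log2 change of all genes from -0.01 to -0.14 for cold in WT mice, from -0.02 to 0.13 between labels at 30 °C and from 0.04 to -0.15 for the difference of responses.

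Differences between labels that did not pass changed sign in several fits. At 30 °C library size alone and nuclear library size gave 0.12 and 0.0355 for Gpd1l and 0.0687 and 0.00755 for Pck1. At 5 °C Gk read 0.0239 in the mice with little muscle RNA and 0.00824 without the 3 extreme libraries, and Gpd2 read -0.0198 with library size alone, -0.0124 in the former mice, -0.00603 without the extreme libraries and -0.019 with nuclear library size. The difference of responses read -0.11 and -0.0201 for Aqp7 with library size alone and nuclear library size, and -0.00785 for Pck1 with library size alone. With 1 mouse left out, the ranges were -0.0424 to 0.37 (Gk) and -0.18 to 0.0749 (Pck1) at 30 °C, -0.0111 to 0.067 (Gpd2) at 5 °C, and -0.39 to 0.0346 for the difference of responses of Gk.

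The members called at 5 °C numbered 1 with DESeq2 and 1 with at least 10 counts in every mouse, and 0 to 1 with a mouse left out. For the difference of responses they numbered 1 with DESeq2 and 0 to 1 with a mouse left out. The cause was not tested. Over all genes, the 14 calls between labels at 30 °C (10 higher, 4 lower) became 48 with DESeq2, 34 with library size alone (34 higher, 0 lower), 9 with no filter, 121 without the 3 extreme libraries (69 higher, 52 lower) and 42 with nuclear library size (41 higher, 1 lower), and 7 to 93 with a mouse left out. The 24 at 5 °C (8 higher, 16 lower) became 197 with DESeq2 (114 higher, 83 lower), 5 with library size alone, 15 with no filter, 45 with at least 10 counts in every mouse, 9 with only the groups compared and 5 in the mice with little muscle RNA, and 7 to 100 with a mouse left out. The 200 for the difference of responses (50 higher, 150 lower) became 488 with DESeq2 (242 higher, 246 lower), 27 with no filter, 31 in the mice with little muscle RNA and 454 with nuclear library size (17 higher, 437 lower), and 49 to 371 with a mouse left out. For cold in labelled mice, 5825 genes rose and 6035 fell, against 3223 and 8384 with library size alone.

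No paired analysis was possible because the labels give no pairing of mice. Replicate numbers run on through the groups, and litters are not given. The WT mice at 5 °C are numbered 16 to 19 and 21, and no reason for the gaps in the numbering is given. Aqp3, at 0 to 13 counts per mouse, is limited by depth.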
